A study of Homo sapiens with 6 samples.

Results

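Cholesterol synthesis and uptake genes were followed in K562 cells, a human line established from a chronic myeloid leukaemia. The list holds 26 genes of the pathway controlled by the transcription factor SREBP2, and their probe sets were taken from the platform annotation. Of these, 24 were measured by at least 1 probe set assigned to a single gene, out of 19775 genes in all. No expression filter was applied to them, but the list was chosen with earlier results of these data known. The annotation used here pairs no probe set with FDFT1, and it pairs the probe sets of CYP51A1 with LRRD1 as well, so neither gene has a value. The 24 genes had 50 probe sets. Each gene is represented by its brightest probe set on average, and values from any other are named as such.

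The cells were nucleofected with an siRNA, called RNAi8 in the labels, or with a scrambled RNA, called scrRNA, at up to 200 nM. Treatment started 24 hours later with ATRA, the all-trans form of retinoic acid, or with DMSO. The siRNA is aimed at PRAME, a tumour antigen known as a repressor of the retinoic acid receptor, and how long the cells stayed in ATRA is not stated. Each of 3 experiments gave 1 siRNA and 1 scrambled array; experiments 1 and 3 had ATRA and experiment 2 had DMSO, so either RNA group holds 3 arrays of a single line.

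Cholesterol is built from acetyl-CoA. The mevalonate steps make isoprenoid units, which are joined to farnesyl and then squalene, and the later enzymes turn squalene into lanosterol and cholesterol. When membranes of the endoplasmic reticulum hold little sterol, SCAP carries SREBP2, the product of SREBF2, to the Golgi, where it is cut and released to switch on most of these genes. When sterol is plentiful, INSIG1 and INSIG2 hold SCAP back, and since INSIG1 is itself a target of SREBP2 its transcript follows the activity of the pathway. SREBPs bind sterol regulatory elements, and also E-boxes, often near a CCAAT box bound by NF-Y.

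The promoters of HMGCS1, MSMO1 and INSIG1 are shown because these members had the largest differences between siRNA and scrambled RNA in experiment 3. Each sequence is the 250 bases before a transcript start in RefSeq (GRCh38.p14), read 5′ to 3′ on the gene's strand, and for HMGCS1 it lies before the outer of both listed starts. Capitals mark matches on either strand to CCAAT, to TCACNCC, a short form of the sterol regulatory element, and to CACGTG, the E-box. The windows are chr5:43313413-43313662 on the minus strand for HMGCS1, chr4:165327419-165327668 on the plus strand for MSMO1 and chr7:155297628-155297877 on the plus strand for INSIG1.
HMGCS1: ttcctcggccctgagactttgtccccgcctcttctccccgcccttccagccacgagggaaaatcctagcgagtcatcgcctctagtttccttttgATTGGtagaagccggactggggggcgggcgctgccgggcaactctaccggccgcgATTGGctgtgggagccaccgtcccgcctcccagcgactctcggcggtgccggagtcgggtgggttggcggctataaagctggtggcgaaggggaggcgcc
MSMO1: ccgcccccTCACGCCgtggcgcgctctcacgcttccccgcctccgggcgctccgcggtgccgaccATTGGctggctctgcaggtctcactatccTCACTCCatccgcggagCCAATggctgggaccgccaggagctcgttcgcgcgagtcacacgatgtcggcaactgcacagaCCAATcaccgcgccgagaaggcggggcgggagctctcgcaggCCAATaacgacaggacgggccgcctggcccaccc
INSIG1: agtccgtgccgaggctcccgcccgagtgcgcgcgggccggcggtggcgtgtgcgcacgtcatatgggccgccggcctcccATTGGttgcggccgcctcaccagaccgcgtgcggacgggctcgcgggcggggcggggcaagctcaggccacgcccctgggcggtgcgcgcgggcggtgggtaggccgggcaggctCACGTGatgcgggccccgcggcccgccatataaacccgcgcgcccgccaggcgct

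The HMGCS1 window holds 2 CCAAT matches, that of MSMO1 holds 4 CCAAT and 2 TCACNCC matches, and that of INSIG1 holds 1 CCAAT and 1 CACGTG match. RefSeq windows of 300 bases, which reach 50 bases past the start, were found for 22 of the measured members. A CCAAT match was present in 18 of them (81.8%), against 39.7% of 27305 genes with a window. TCACNCC was present in 8 members (36.4%, against 18.2% of genes), for HMGCS1 only in the window of its inner start, and CACGTG in 4 (18.2%, against 8.77%). The longer form TCACNCCA was present in 3 members, MSMO1, MVK and SREBF2 (13.6%, against 4.8%). A match is a description of the sequence and not a binding site.

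PRAME, the targeted gene, stood at 12.13, 12.14 and 12.10 with the siRNA and at 13.00, 12.99 and 12.70 with the scrambled RNA in experiments 1, 2 and 3. That left 54.4%, 55.4% and 65.9% of the scrambled signal, and CYP26A1, a direct retinoic acid target, stood at 11.21 to 12.21 on the ATRA arrays and at 5.72 and 5.75 on the DMSO arrays. All 10 measured markers of K562 cells had a mean above the median of all probe sets (5.99), the level below which a probe set is called dim here, and GATA1 stood at 8.86 and HBZ at 12.03. Markers of macrophages were dim in 4 of 5, of hepatocytes in 5 of 6, of T and NK lymphocytes in 5 of 8, of stroma in 3 of 6 and of B lymphocytes in 2 of 5, with mean levels per array of 5.24 to 5.41, 5.43 to 5.53, 6.05 to 6.31, 6.01 to 6.12 and 6.21 to 6.29. CD3D, a T cell marker, was bright at 10.08 and COL1A1, a stromal collagen, at 8.41. Experiment 3 stood apart. Its arrays correlated with the other 4 at 0.979 to 0.982 across probe sets, while those of experiments 1 and 2 correlated at 0.996 or more. Its actin 3' probe set exceeded the 5' one by 2.98 (siRNA) and 3.36 (scrambled), against 0.63 to 0.92 elsewhere, and the same gap for GAPDH came to 1.20 and 0.74, where the other arrays had 0.03 to 0.08. Values of experiment 3 are therefore given beside those of the other experiments throughout.

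All 24 members had a mean above the median of all probe sets, from 6.13 for MVD to 11.00 for FDPS. Of all 19775 genes 6900 were dim, and the shares of all genes given here were not matched to the members for brightness. Log2 levels rank each gene across arrays and not genes against each other. With so few arrays the precision is low, and fewer cells and less RNA per cell cannot be told apart in these samples.

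Whether the siRNA changed the pathway was asked over the 3 experiments. No member passed the test, and the members did not move one way. In limma with treatment as a covariate, 0 of the 24 members and 0% of all genes had an adjusted p below 0.05, and at an unadjusted p below 0.05 there were 0 members against 1.29% of genes. PRAME, the targeted gene, did not pass in that fit either, so the lack of calls there cannot show that the members were unchanged. With the experiment as a block, so that each siRNA array is set against its own scrambled array, 0 members passed against 0.0253% of genes. PRAME did pass in the blocked fit (adjusted p = 0.000997 in limma). At an unadjusted p below 0.05 in that paired fit 1 member was lower, HMGCS1, against 3.01% of genes, and 0 were higher, against 3.4%. That holds for the brightest probe sets. With each probe set tested singly, 3 of the members' 50 had such a p, those of HMGCS1 and the INSIG1 one at 8.13. All 3 were lower, 0 passed after adjustment, and the share over all probe sets is not given. The median difference over the members was -0.020 and that over all genes 0.0056.

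HMGCS1, the synthase that makes HMG-CoA, was lower with the siRNA in every experiment. Its log2 level was 9.58, 9.88 and 9.58 with the siRNA and 9.70, 10.07 and 9.95 with the scrambled RNA in experiments 1, 2 and 3. Each siRNA array lay below its own scrambled array, while the groups overlapped across experiments. The group means were 9.68 ± 0.17 (SD, n = 3) and 9.91 ± 0.19 (SD, n = 3). The differences were -0.12, -0.19 and -0.37, a mean of -0.22 with an SE of 0.06 in the blocked fit (95% interval -0.35 to -0.10, adjusted p = 0.645) and of 0.11 without the block (adjusted p = 1). The second HMGCS1 probe set, at a mean of 6.62, differed by -0.04, -0.11 and -0.52, and so ran the same way. HMGCS1 had the smallest p among the members and still missed the threshold over all genes.

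FDPS, which makes farnesyl pyrophosphate, was also lower in all 3 experiments, though by little outside experiment 3. It stood at 10.95, 11.02 and 10.84 with the siRNA and at 10.97, 11.07 and 11.14 with the scrambled RNA. The differences were -0.02, -0.05 and -0.29 (blocked SE 0.06, 95% interval -0.25 to 0.01, adjusted p = 0.777). The groups overlapped, and the siRNA array of experiment 3 was the lowest of all 6.

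The remaining mevalonate genes showed no common direction. ACAT2, the acetoacetyl-CoA thiolase of the cytosol, differed by -0.03, 0.02 and 0.08. MVK, which phosphorylates mevalonate, differed by 0.03, -0.01 and 0.10, and PMVK, the next kinase, by 0.01, 0.06 and -0.14. MVD, the decarboxylase that follows, differed by -0.06, -0.12 and 0.09. IDI1, the isopentenyl diphosphate isomerase, differed by -0.08, 0.04 and 0.12. GGPS1, which makes geranylgeranyl pyrophosphate for protein prenylation, differed by -0.0021, 0.04 and -0.08. In this role group 2 of 8 genes were lower in every experiment, namely HMGCS1 and FDPS, and 0 of 8 were higher in every one.

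Of the enzymes from squalene onwards, EBP, the sterol isomerase, was the member lower in all 3 experiments on its brightest probe set. Its level was 9.77, 9.95 and 9.26 with the siRNA and 9.83, 10.04 and 9.39 with the scrambled RNA. The differences of -0.06, -0.09 and -0.13 were close to each other (blocked SE 0.05, 95% interval -0.20 to 0.02, adjusted p = 0.794), and the levels differed more between experiments than between RNAs. A second EBP probe set at 9.10 ran the same way (-0.03, -0.09 and -0.20), while those at 6.88 (-0.07, -0.29 and 0.42) and 6.03 (0.03, 0.11 and 0.02) did not.

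MSMO1, the C4-methylsterol oxidase, had a far larger difference in experiment 3 than elsewhere, and of the opposite sign. Its level was 7.81, 8.31 and 8.53 with the siRNA and 7.65, 8.26 and 9.03 with the scrambled RNA. The differences were 0.16, 0.06 and -0.50 (blocked mean -0.10, SE 0.11, adjusted p = 0.884). DHCR7, the reductase of the last step, stood at 8.42, 8.33 and 8.94 with the siRNA and 8.36, 8.51 and 9.20 with the scrambled RNA, and differed by 0.06, -0.17 and -0.27 (adjusted p = 0.795 with the block). Its second probe set differed by -0.07, -0.14 and -0.11. HSD17B7, a ketoreductase of the C4 demethylation complex, stood at 8.97, 9.01 and 8.81 with the siRNA and 9.04, 8.99 and 9.06 with the scrambled RNA, and differed by -0.07, 0.02 and -0.26 (adjusted p = 0.820 with the block). All 3 genes had their lowest difference in experiment 3.

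SQLE, the squalene epoxidase often counted as rate-limiting, was near 0 throughout, at 0.06, -0.0048 and -0.0024. LSS, which cyclises the epoxide to lanosterol, differed by 0.03, 0.11 and -0.04, and NSDHL, a further enzyme of C4 demethylation, by 0.02, -0.07 and 0.08. TM7SF2, a sterol reductase, was higher by 0.03, 0.03 and 0.02 and SC5D, the sterol desaturase, by 0.06, 0.01 and 0.08. Those were the 2 genes of 9 in this group that were higher in every experiment.

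Among the regulators, INSIG1 had the largest single difference of any member. Its level was 9.54, 9.33 and 10.18 with the siRNA and 9.50, 9.31 and 10.79 with the scrambled RNA. The arrays of experiments 1 and 2 differed by 0.04 and 0.02 and those of experiment 3 by -0.61, so that 65.4% of the scrambled signal was left there. The blocked mean was -0.19 with an SE of 0.11 (95% interval -0.42 to 0.05, adjusted p = 0.803), and without experiment 3 it was 0.03 (adjusted p = 0.982). The INSIG1 probe set at a mean of 8.49 differed by 0.05, -0.07 and -0.39. That at 8.13 was lower in every experiment, by -0.15, -0.14 and -0.46 (adjusted p = 0.835 in limma with the block). All 3 probe sets were thus lower in experiment 3, and the values outside it depended on the probe set. INSIG2, the second retention protein, was higher by 0.12, 0.01 and 0.04. SCAP, the escort of SREBP2, differed by -0.02, -0.08 and -0.15 and so was lower each time. SREBF2 itself differed by -0.14, 0.05 and -0.0029, and its other probe sets by -0.04, -0.17 and -0.05 and by -0.07, -0.07 and -0.27.

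The transport genes had no common direction either. STARD4, which moves cholesterol between membranes, stood at 8.69, 8.64 and 9.18 with the siRNA and 8.64, 8.52 and 9.36 with the scrambled RNA, and differed by 0.05, 0.12 and -0.18. NPC1 and NPC2 hand cholesterol out of lysosomes. NPC1 differed by 0.07, -0.04 and 0.02 and NPC2 by 0.0026, -0.03 and -0.20.

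**Figure D1:**
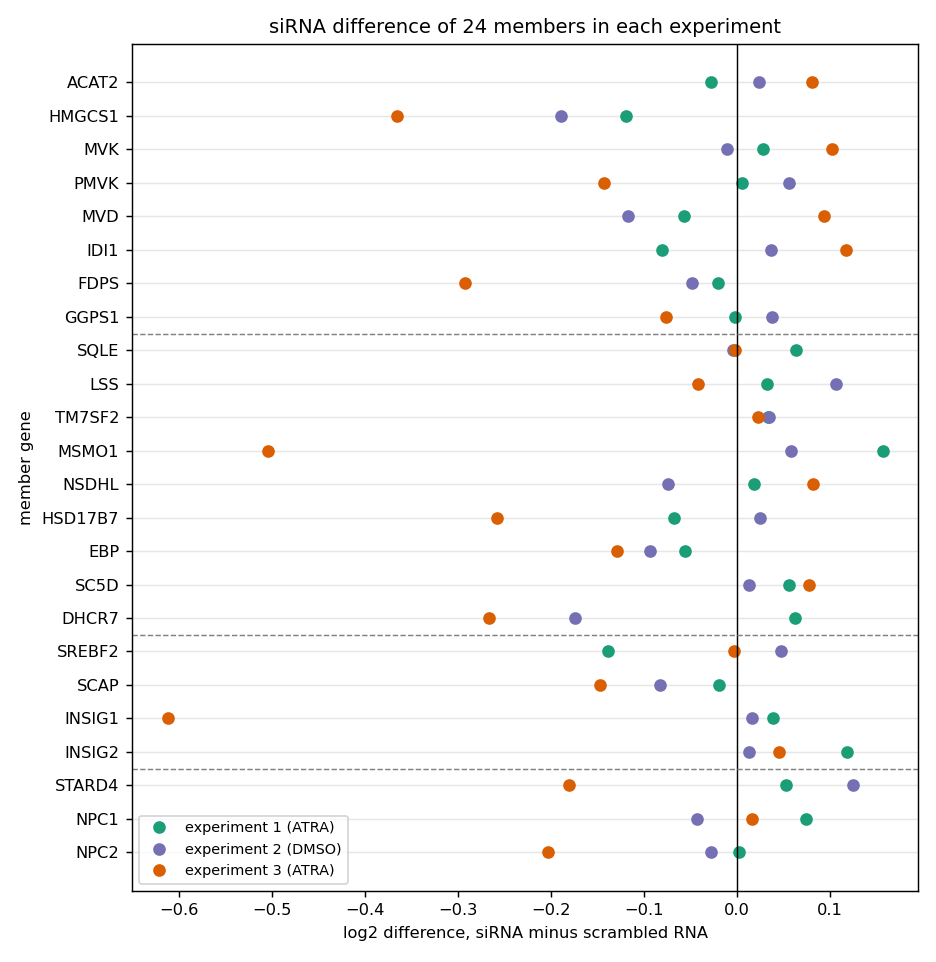
Difference in log2 expression between the siRNA and the scrambled array of the same experiment, for each of the 24 members (1 point per experiment; dashed lines part the mevalonate, sterol, regulator and transport genes). The points of experiment 3 for INSIG1 (-0.61), MSMO1 (-0.50) and HMGCS1 (-0.37) lie furthest left.

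Counted by experiment, the members that were lower with the siRNA numbered 10 in experiment 1, 11 in experiment 2 and 15 in experiment 3, out of 24. Among all genes 44.1%, 48.1% and 47% were lower, so experiments 1 and 2 were near the background. The median difference of the members was 0.01, 0.01 and -0.06, beside 0.0013, 0 and 0.00093 for all genes. Lower in all 3 experiments were 4 members, HMGCS1, FDPS, EBP and SCAP, against 11.9% of genes, and higher in all 3 were TM7SF2, SC5D and INSIG2, against 13.1%. Both shares (16.7% and 12.5% of members) were close to those of all genes. They rest on the brightest probe sets. Other probe sets that were not dim were lower in all 3 experiments for NSDHL, DHCR7, SREBF2 and INSIG1. The EBP probe set at 6.03 was higher in all 3. The lowest of the 3 differences lay in experiment 3 for 14 members, or 58.3%, against 36.3% of all genes.

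Larger differences, on a bound of 0.25 log2 units that was chosen after the values were seen, occurred in experiment 3 alone on the probe sets used for the genes. There 6 members were lower by more than that, INSIG1, MSMO1, HMGCS1, FDPS, DHCR7 and HSD17B7, which is 25% of members against 6.35% of all genes. None was higher by more than 0.25, against 5.25% of genes. In experiment 1 there were 0 members past the bound in either direction (1.96% of genes lower, 2.51% higher), and in experiment 2 also 0 (1.98% lower, 3.45% higher). Other probe sets that were not dim did pass it elsewhere or upwards. The EBP probe set at 6.88 was at -0.29 in experiment 2 and 0.42 in experiment 3, and the SQLE probe set at 6.93 was at 0.26 in experiment 1. The difference of experiment 3 rests on 1 siRNA and 1 scrambled array, so there is no replicate check and no test. The signal left was 65.4% for INSIG1, 70.5% for MSMO1, 77.6% for HMGCS1, 81.7% for FDPS, 83.2% for DHCR7 and 83.6% for HSD17B7. The control gaps of that pair differed too (2.98 and 3.36 for actin, 1.20 and 0.74 for GAPDH), and their part in the result was not tested.

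**Figure D2:**
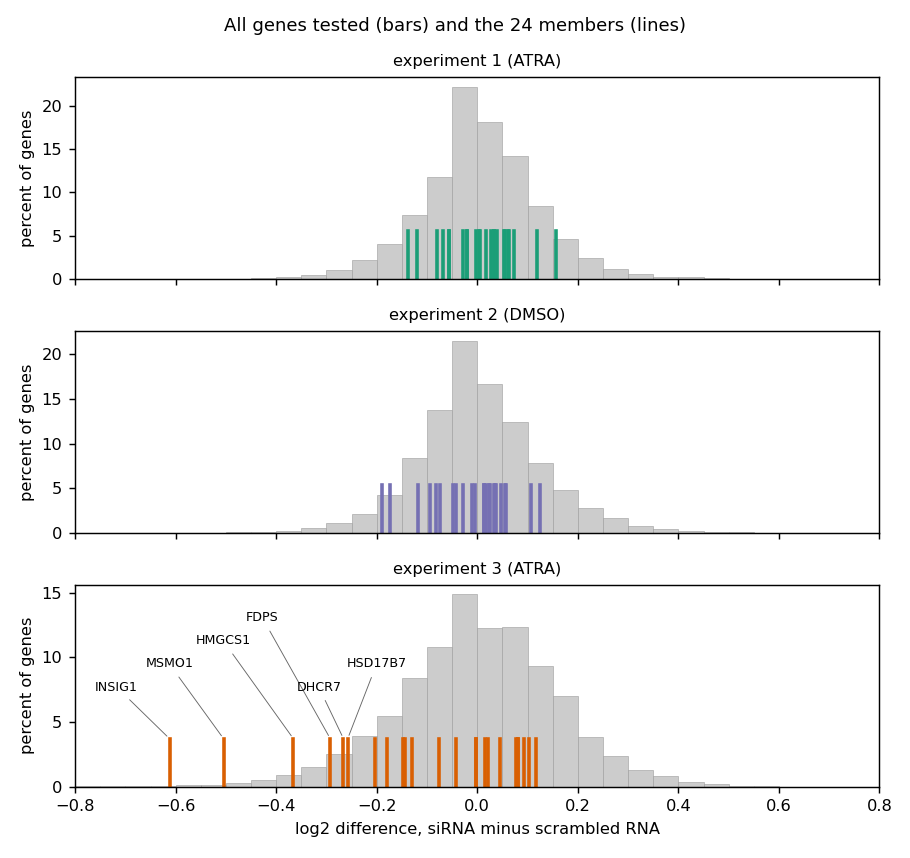
Distribution of the siRNA minus scrambled log2 difference over all 19775 genes (grey bars, percent of genes in bins of 0.05, shown from -0.8 to 0.8) with the 24 members as coloured lines, 1 panel per experiment. In experiments 1 and 2 no member lies beyond 0.25 on either side, and in experiment 3 the 6 named members lie below -0.25.

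The scrambled array of experiment 3 was the highest of all 6 for 8 members, FDPS, LSS, MSMO1, HSD17B7, DHCR7, SCAP, INSIG1 and STARD4, among them 5 of the 6 named above. That is 33.3% of members, against 19.2% of all genes. For INSIG1, MSMO1, DHCR7 and STARD4 the siRNA array of experiment 3 still exceeded all 4 arrays of the other experiments. For HMGCS1 it did not, at 9.58, the same rounded level as the siRNA array of experiment 1. The INSIG1 order depended on the probe set. That at a mean of 8.13 stood at 7.33 (siRNA) and 7.79 (scrambled) in experiment 3 and at 8.31 to 8.50 on the other arrays.

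**Figure D3:**
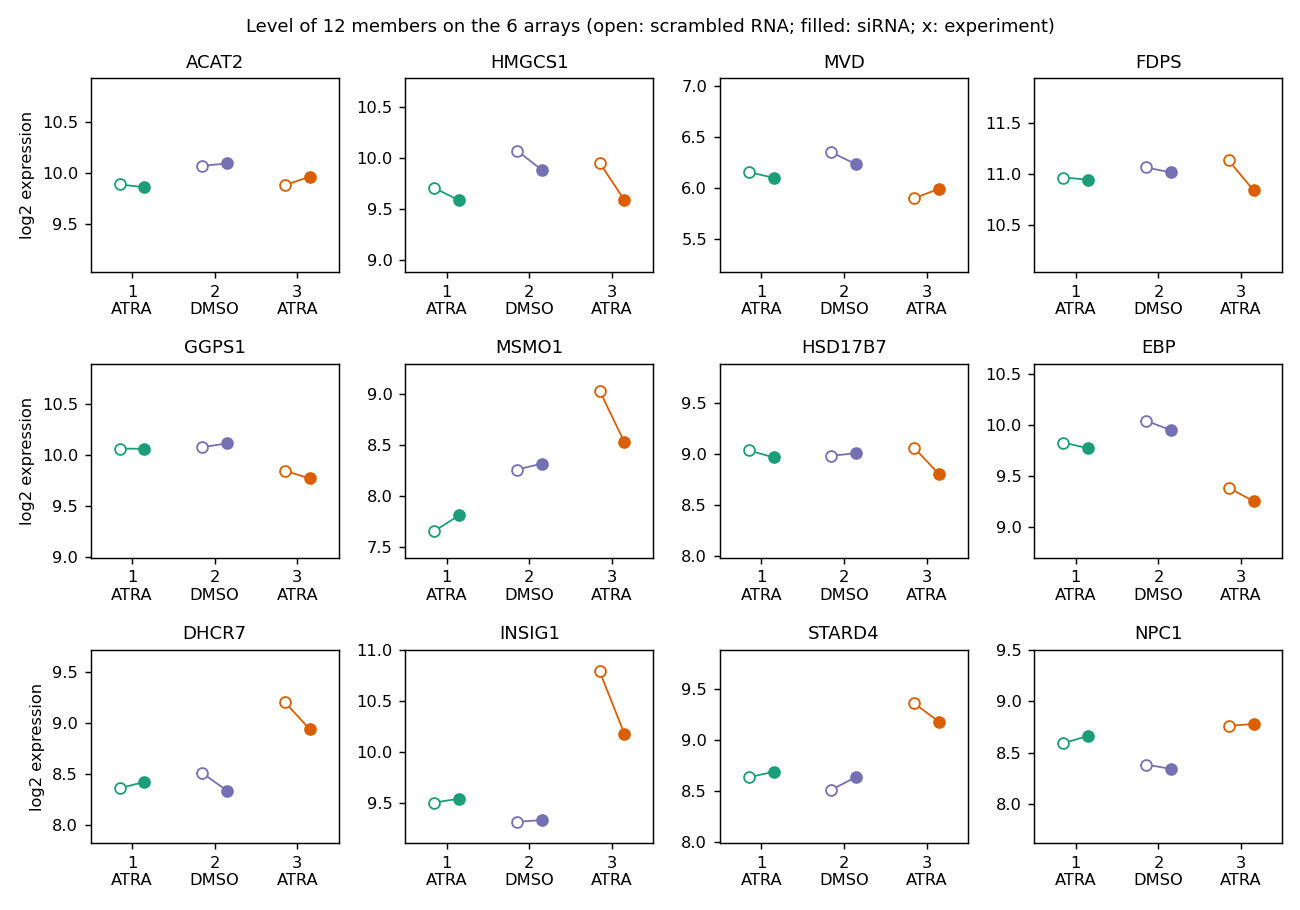
Log2 expression of 12 members on the 6 arrays, with open points for scrambled RNA and filled points for siRNA, joined within an experiment. Every panel spans 1.9 log2 units. On the brightest probe sets, which are drawn, MSMO1, DHCR7, INSIG1 and STARD4 are highest in experiment 3, where their filled points lie below the open ones.

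The siRNA was also compared within ATRA alone, over experiments 1 and 3. In limma with the experiment as a block, 0 members had an adjusted p below 0.05, against 0.00506% of genes. At an unadjusted p below 0.05 there was 1 member, HMGCS1 at -0.24, against 5.88% of genes. Whether the siRNA effect differed between ATRA and DMSO was asked by an interaction, in which the DMSO side is 1 pair. For INSIG1 the difference of effects was -0.30 (95% interval -0.84 to 0.23 with the block and -2.85 to 2.25 without it), and for HMGCS1 it was -0.05 (-0.37 to 0.26 with the block). At an unadjusted p below 0.05 there were 0 members, against 3.31% of genes, and the smallest adjusted p among them was 0.998 with the block.

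ATRA was compared with DMSO over the means of each experiment, 2 ATRA experiments against 1. DMSO was given in experiment 2 alone, so a difference of treatment cannot be told apart from a difference of that experiment. No member passed, and 9 of the 24 were lower and 5 higher in both ATRA experiments. The limma fit had 1 DMSO experiment and 1 residual degree of freedom. CYP26A1, far higher under ATRA, did not pass in it either, so the lack of a passing member cannot tell whether the members changed. In the mevalonate group 6 of 8 genes were lower in both ATRA experiments and 0 of 8 higher in both, with a median of -0.15. Among all genes 36.5% were lower in both and 31.6% higher in both. Of the 9 enzymes from squalene onwards 2 were lower in both and 0 higher in both, with a median of -0.03. In the regulator group 3 of 4 were higher in both, SCAP by 3.8e-05 in experiment 1, and in the transport group 2 of 3. The role groups were not tested against each other. Both ATRA experiments share the 1 DMSO experiment, so these counts are not independent of each other.

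All 4 ATRA arrays lay below both DMSO arrays for 6 members, ACAT2, PMVK, MVD, GGPS1, SQLE and EBP, against 13.2% of genes, which is 25% of the members. They lay above for 2 members, INSIG1 and NPC1 (8.33%, against 13.5% of genes). ACAT2 stood at 9.86, 9.88, 9.96 and 9.88 under ATRA and at 10.09 and 10.07 under DMSO. The difference of means was -0.18 ± 0.28 (SE), with -0.21 in experiment 1 and -0.16 in experiment 3. MVD stood at 6.10, 6.16, 6.00 and 5.90 under ATRA and at 6.24 and 6.35 under DMSO, a difference of -0.25 ± 0.12 (SE, adjusted p = 0.995). For MVD it was -0.16 in experiment 1 and -0.34 in experiment 3, and MVD was the dimmest member.

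GGPS1 stood at 10.06, 10.06, 9.77 and 9.84 under ATRA and at 10.11 and 10.07 under DMSO. Its difference of -0.16 ± 0.30 (SE) came mostly from experiment 3 (-0.29, against -0.03 in experiment 1), and its second probe set ran the other way (0.16 and 0.20). EBP stood at 9.77, 9.83, 9.26 and 9.39 under ATRA and at 9.95 and 10.04 under DMSO, a difference of -0.44 ± 0.36 (SE). That was -0.20 in experiment 1 and -0.68 in experiment 3. The EBP probe set at 9.10 differed by -0.16 and -0.05, that at 6.88 by -0.05 and 0.31 and that at 6.03 by 0.06 and -0.02. Both the size and the sign thus depended on the probe set, and the mean of all 4 gave -0.10.

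NPC1 was the transport gene with all ATRA arrays above the DMSO arrays. It stood at 8.66, 8.59, 8.78 and 8.76 under ATRA and at 8.34 and 8.38 under DMSO, a difference of 0.34 ± 0.27 (SE; 95% interval -0.41 to 1.09). The value was 0.27 for experiment 1 and 0.41 for experiment 3. INSIG1 differed by 0.68 ± 0.51 (SE; 95% interval -0.78 to 2.14), which was 0.20 in experiment 1 and 1.16 in experiment 3. Its other probe sets differed by 0.08 and 0.82 and by -0.04 and -0.87, and the mean of all 3 gave 0.23. HMGCS1 differed by -0.33 and -0.21, with 1 ATRA array (9.95) inside the range of the DMSO arrays (9.88 and 10.07).

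On the brightest probe sets, several members had opposite signs in the ATRA experiments. MSMO1 was at -0.56 in experiment 1 and 0.49 in experiment 3, DHCR7 at -0.03 and 0.65, NSDHL at -0.17 and 0.18, LSS at -0.06 and 0.15, SC5D at -0.07 and 0.20, and IDI1 at -0.11 and 0.11. TM7SF2 (0.0032 and -0.46), NPC2 (0.0094 and -0.45), HSD17B7 (0.0055 and -0.06) and MVK (0.01 and -0.02) had opposite signs the other way. Other probe sets that were not dim had the same sign in both for DHCR7 (0.12 and 0.37) and NSDHL (-0.26 and -0.62). So did those of MVK (-0.02 and -0.09, -0.16 and -0.18). For IDI1 they were at -0.14 and 0.09, at -0.0061 and -0.22 and at -0.05 and -0.10. The remaining members were PMVK (-0.08 and -0.22), FDPS (-0.08 and -0.05), SQLE (-0.06 and -0.05), SREBF2 (-0.08 and -0.25), SCAP (3.8e-05 and 0.33), INSIG2 (0.07 and 0.52) and STARD4 (0.09 and 0.69). The size for SQLE depended on the probe set. Its others, none dim, were at -0.23 and -2.54, at 0.01 and -0.32 and at -0.30 and -1.05.

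**Figure D4:**
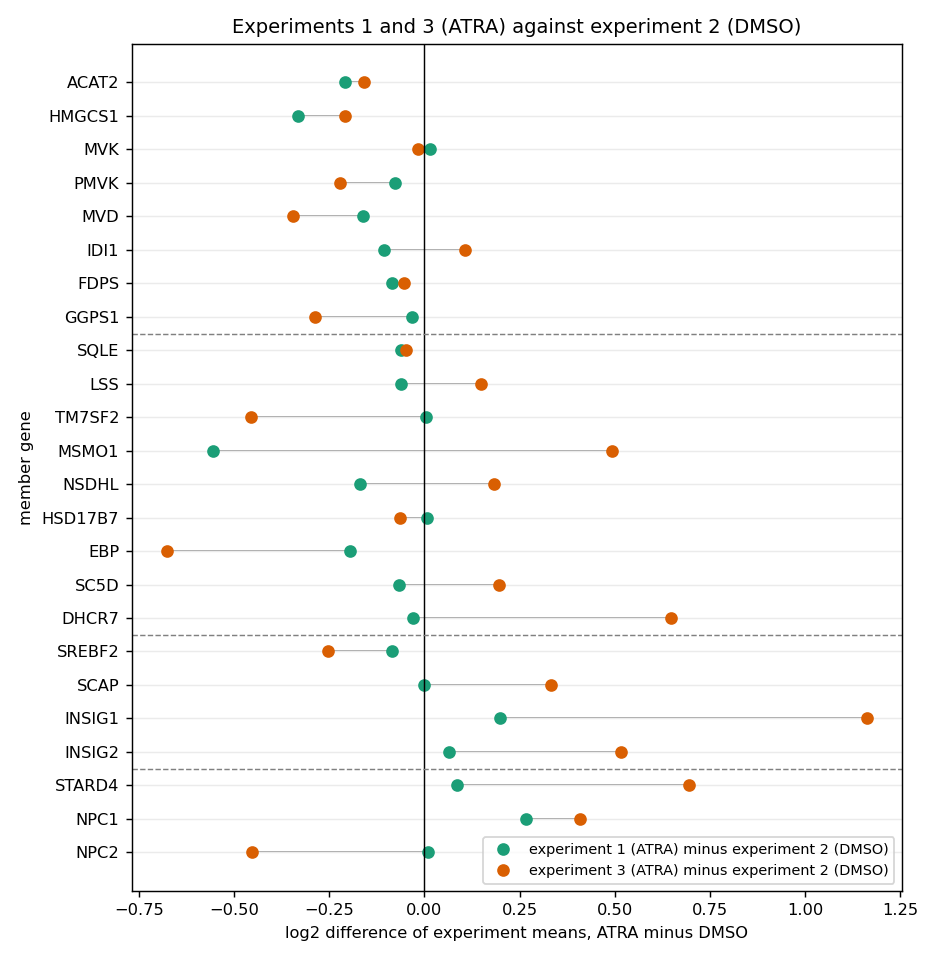
Difference of experiment means in log2 expression for each member, experiment 1 (ATRA) and experiment 3 (ATRA) each minus experiment 2 (DMSO), joined by a line. The points lie on opposite sides of 0 for MSMO1 (-0.56 and 0.49), and INSIG1 is furthest right in experiment 3 (1.16).

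Experiments 1 and 3 both received ATRA, and several pathway genes stood at different levels in them. MSMO1 was higher in experiment 3 by 1.05 log2 units (2.07-fold), INSIG1 by 0.96 (1.95-fold), DHCR7 by 0.68 (1.60-fold) and STARD4 by 0.61 (1.52-fold). These 4 members were above 0.5, a bound also chosen after the values were seen, or 16.7% of members against 7.76% of all genes, and 0 were below -0.5, against 3.94%. Both arrays of experiment 3 lay above both of experiment 1 for 11 members, against 33.4% of genes, and below for 7 members, against 25%. The members that were lower included EBP (-0.48), NPC2 (-0.46) and TM7SF2 (-0.46). The median over the members was 0.09 and over all genes 0.01. On the mean of all probe sets of a gene the members' median turned to -0.015, and INSIG1 came to 0.29. This is 1 experiment against 1, with no test, and the experiments also differ in the control gaps given above, whose part was not tested.

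The differences of experiment 3 depended on the probe set. Of 10 members with several probe sets that were not dim, 7 had probe sets on both sides of 0 for experiment 3 against experiment 1. INSIG1 was at 0.96 and 0.73 on 2 probe sets and at -0.82 on the third. SQLE was at 0.01 on the probe set used here and at -2.32, -0.33 and -0.74 on the others, and NSDHL at 0.35 and -0.37. DHCR7 was at 0.68 and 0.25, higher on both, while MSMO1 and STARD4 had 1 probe set each. The siRNA difference within experiment 3 had probe sets on both sides of 0 for 6 of the 10 members. All probe sets that were not dim were lower for HMGCS1, DHCR7, INSIG1 and SREBF2.

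**Figure D5:**
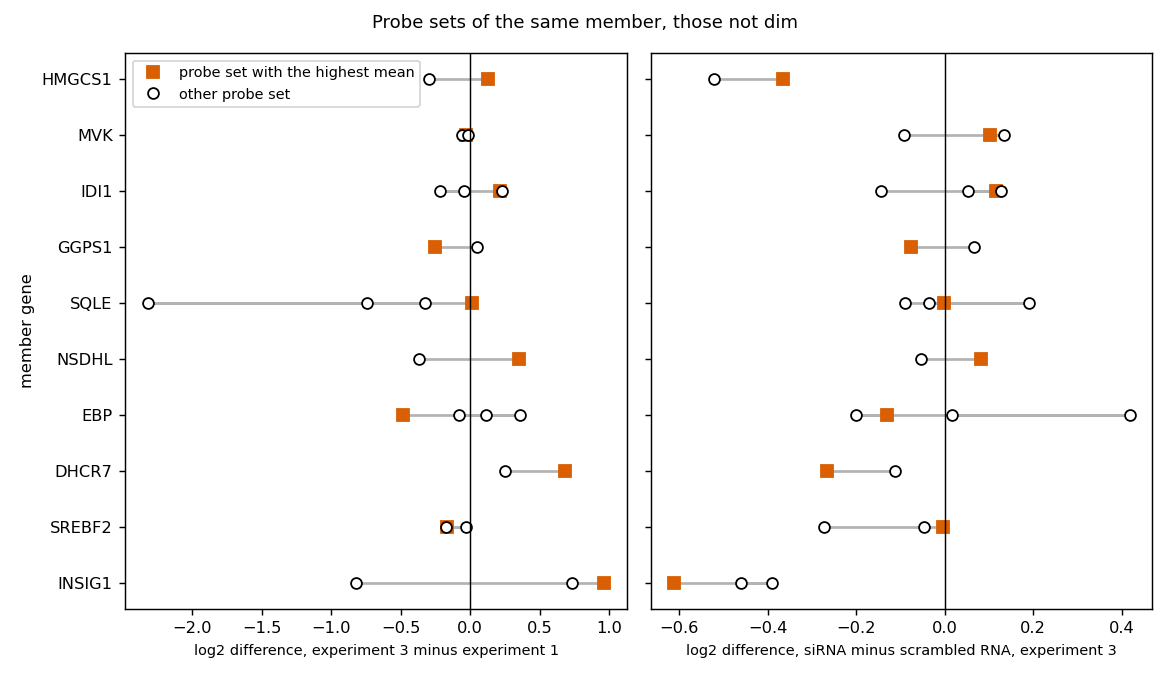
Log2 differences on each probe set that was not dim, for the 10 members with several of them; squares are the probe sets used for the gene and circles the others. Left, experiment 3 minus experiment 1, where SQLE spans -2.32 to 0.01 and INSIG1 -0.82 to 0.96; right, siRNA minus scrambled RNA in experiment 3, where the 3 INSIG1 probe sets lie between -0.61 and -0.39.

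Neighbouring pathways were read from lists of further genes. Each of these genes is given by its brightest probe set alone, and their other probe sets were not compared. No gene of them passed in either comparison over all genes. In 6 measured of 8 other sterol enzymes and binding proteins, 0 had an unadjusted p below 0.05 for the siRNA with the block, and ERG28, a sterol scaffold protein, was at 0.01, -0.15 and -0.15. TMEM97, a membrane protein that binds NPC1, was at -0.05, -0.08 and -0.06 with the siRNA and at -0.05 and 0.73 in the ATRA experiments. LBR, the lamin B receptor with sterol reductase activity, was at 0.10 and 0.79 against DMSO.

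All 9 measured of 12 genes of SREBP processing and sterol-regulated degradation were higher in both ATRA experiments, against 31.6% of all genes. Their median was 0.12 in experiment 1, 0.34 in experiment 3, whose control gaps were large, and 0.26 over both, beside -0.0081 for all genes. MBTPS1 and MBTPS2 encode the proteases that cut SREBPs in the Golgi, and they were at 0.21 and 0.87 and at 0.14 and 0.81. With the siRNA MBTPS1 was at 0.15, 0.06 and 0.16 and PAQR3, a Golgi anchor of SCAP, at -1.5e-05, -0.25 and -0.11, and neither reached an unadjusted p of 0.05.

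Fatty acid synthesis genes are driven by SREBP1, and 8 of 12 measured were higher in both ATRA experiments (31.6% of all genes), with a median of 0.42. SREBF1 itself was at 0.75 and 0.88 and SCD, the stearoyl-CoA desaturase, at 0.75 and 0.85, the 2 genes of this list with an unadjusted p below 0.05 (1.19% of all genes; adjusted p = 0.995 in limma). SREBF2, by comparison, was at -0.08 and -0.25. With the siRNA LPIN1, a phosphatidate phosphatase, was at -0.13, -0.11 and -0.12 and ME1, a source of NADPH, at 0.09, 0.02 and 0.26, and of these LPIN1 alone reached an unadjusted p below 0.05 with the block.

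In the prenylation, dolichol and ubiquinone branches 3 of 13 measured genes had an unadjusted p below 0.05 for the siRNA with the block, all higher, against 3.4% of all genes higher and 3.01% lower at that p. They included PDSS1, which makes the ubiquinone side chain (0.12, 0.06 and 0.31), and ICMT, which methylates prenylated proteins (0.23, 0.01 and 0.19; adjusted p = 0.771 for both). PGGT1B (0.21 and 0.81) and DHDDS (0.07 and 0.67) led that list in the ATRA comparison. In cholesterol storage and membrane transfer 2 of 14 genes had such a p, against the same shares of all genes, SCARB1, the HDL receptor, on the lower side (-0.04, -0.15 and -0.28) and SCARB2, a lysosomal membrane protein, on the higher side (0.15, 0.04 and 0.18). NCEH1, a cholesterol ester hydrolase, was at 0.14 and 1.00 against DMSO and GRAMD1C, a sterol transfer protein, at -0.13 and -0.16, both dim.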

How the data were processed

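Affymetrix U133 Plus 2.0 arrays measured RNA of 6 K562 samples. The authors deposited log2 values made by RMA in BRB Array Tools, per the series' design text, which gives no other settings. Of 54675 probe sets, 62 were controls, 41091 had 1 gene in the platform annotation, 1801 had several and 11721 were not listed. Each of 19775 genes was represented by its probe set with the highest mean.

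Tests used limma 3.58.1 in R 4.3.3 (eBayes with trend, Benjamini-Hochberg over all genes, threshold 0.05), with 3 residual degrees of freedom for the siRNA, 2 with the experiment as a block and 1 for ATRA on experiment means. Scripts were tested on simulated data. The experiment numbers in the sample titles pair the arrays. Arrays of an experiment also deviated together from the mean of their RNA group (correlations 0.679, 0.795 and 0.883). Treatment was not removed from those deviations and varies only between experiments, so the correlations cannot show pairing beyond it. The siRNA p-values over the 3 experiments rest on the spread between arrays left after RNA and treatment. With the block they rest on the spread of the 3 differences within experiments. For ATRA they rest on the gap between the 2 ATRA experiments, with no spread for DMSO. In each fit eBayes also drew on the spread of all genes. All 26 listed genes are named. Values on every array are given for the 6 members of smallest p for the siRNA with the block, the 6 with the largest ATRA difference among those whose arrays do not overlap, and the 4 with the largest difference between experiments 3 and 1. Up to 2 genes by p in each comparison are named from each other list. The members and lists were chosen with earlier results of these data known. Promoters are from RefSeq.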

Additional observations from a re-analysis of the deposited data

How the results depend on the processing

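No member passed the threshold for the siRNA, within ATRA, for the difference of effects or for ATRA under any alternative that was run, with the replicate block or without it. HMGCS1 kept its direction throughout, with adjusted p from 0.523 to 1, and its paired value was -0.22. Leaving out arrays or experiments took the median siRNA difference of the members from -0.051 to 0.026 (-0.020 as reported), INSIG1 from -0.52 to 0.21, DHCR7 from -0.37 to 0.11 and EBP from -0.24 to 0.055. INSIG1 was at 0.028 without experiment 3, with or without the block, and its positive values came without the siRNA array of experiment 1, the scrambled array of experiment 3 or all of experiment 3. The median ATRA difference, -0.030 as reported, was -0.062 on means of all probe sets of a gene and -0.064 after quantile normalization again, and without 1 ATRA experiment it ran from -0.060 to -0.033. GGPS1 turned to 0.0095 on means of probe sets. The median of experiment 3 against experiment 1 turned from 0.09 to -0.015 there. The count of 6 members lower by over 0.25 in experiment 3 was 8 (15.8% of genes) at 0.15, 3 (2.25% of genes) at 0.35, 5 (4.19%) on means of probe sets and 4 (5.95%) after quantile normalization again. Of the 50 probe sets of the members 7 were dim, none of them used for a gene. These alternatives to the count, the siRNA fit without experiment 3 and no block, and the bound itself were chosen after seeing the data.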
